A study of Mus musculus with 8 samples.

Results

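The 10 cyclin genes *Ccnd1*, *Ccnd2*, *Ccnd3*, *Ccne1*, *Ccne2*, *Ccna2*, *Ccnb1*, *Ccnb2*, *Ccnf* and *Ccng1* were followed as C2C12 myoblasts left the cell cycle to differentiate. They were taken by name from the 27179 genes of the deposited expression table and from the 4 deposited lists of m6A peaks. All 10 were among the 11406 genes that passed the filter on low values, which was a value of at least 25.1 in at least 2 libraries. C2C12 is an immortalized mouse myoblast line of clonal origin, grown on collagen-coated plates in both states. Cells in growth medium (GM) were taken at about 50% confluence with 10% fetal bovine serum. Cells in differentiation medium (3d DM) were taken 3 days after the change to 2% horse serum, with a recorded confluence of at least 90%. The paper gives their confluence at the change of medium, not at the harvest. No gene was altered and no drug was given in either state. Each state had 2 input RNA libraries and 2 libraries of RNA precipitated with an antibody to N6-methyladenosine (m6A), the most common internal mark of mRNA. The sources do not say that the 2 replicates came from separate cultures, so p-values measure only the spread between these libraries. For the deposited expression values this spread was pooled over genes of similar level, not taken from each gene alone.

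Cyclins are the regulatory subunits of cyclin-dependent kinases (CDKs), and most of them take their name from rising and falling through the cell cycle. D-type cyclins bind the kinases Cdk4 and Cdk6 in response to growth factors, E-type cyclins act with Cdk2 at the entry into S phase, cyclin A acts in S phase and G2, and B-type cyclins drive mitosis with Cdk1. Cyclin F is not a CDK partner but the substrate-binding part of a ubiquitin ligase, and cyclin G1 is a target of p53. Myoblasts must leave the cycle before they fuse into myotubes, and cyclin D3 is known as the D-type cyclin that muscle cells keep when they differentiate.

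Of the 10 cyclins, 7 fell from GM to 3d DM, 1 rose and 2 did not pass the test (limma on log2(value + 1), adjusted p under 0.05). The 7 that fell were *Ccnd1*, *Ccne1*, *Ccne2*, *Ccna2*, *Ccnb1*, *Ccnb2* and *Ccnf*, the 1 that rose was *Ccnd3*, and the other two were *Ccnd2* and *Ccng1*. Over all tested genes, 17.0% were called in either direction, 9.96% as higher in GM and 7.01% as higher in 3d DM. Both GM values lay above both 3d DM values for 8 of the 10 cyclins, against 37.0% of all tested genes. Both 3d DM values lay above both GM values for *Ccnd3* alone among the 10, against 16.8% of tested genes. The median log2 fold change (GM minus 3d DM) was 2.58 over the 10 cyclins and 0.22 over all tested genes. In bulk RNA, fewer cycling cells and less cyclin RNA per cell cannot be told apart.

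**Figure D1:**
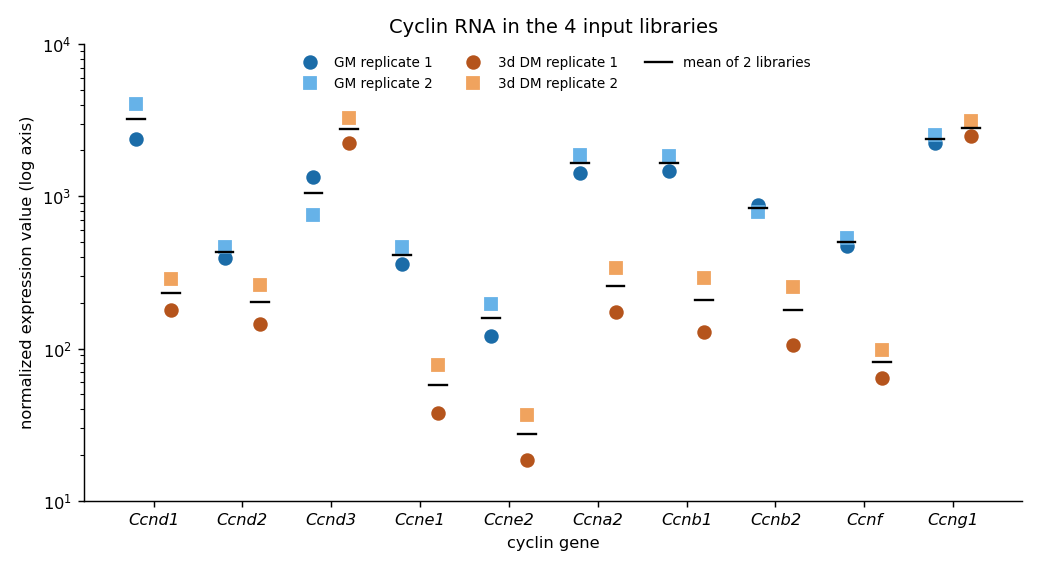
Normalized expression value (log axis) of each cyclin gene in the 4 input libraries, with GM in blue, 3d DM in orange, circles for replicate 1, squares for replicate 2 and a bar for the mean of 2 libraries. The states are far apart for *Ccnd1* and for the E, A, B and F cyclins, *Ccnd3* is the gene with both 3d DM values on top, and the states overlap for *Ccng1*.

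The deposited columns were not centred on each other, and the median of all genes was above 0. Rescaling each library by the median of ratios moved that median to -0.01 and left the same 8 cyclins called, with the same directions. The adjusted p-values of the 7 that fell became far less extreme (limma). They then ran from 0.0029 for *Ccnd1* to 0.014 for *Ccne2*, against 2.2e-16 and 6.6e-05 for these 2 genes with the deposited values. The same rescaling called 11.2% of all tested genes as higher in GM and 12.0% as higher in 3d DM, so that GM-high genes made up 48.2% of the calls, against 58.7% with the deposited values. It shifted the log2 fold change of each of the 10 cyclins by nearly the same amount, from 3.77 to 3.54 for *Ccnd1* and from -1.43 to -1.66 for *Ccnd3*. 3d DM replicate 1 had the lowest scale (a log2 factor of -0.37, against 0.14 for 3d DM replicate 2) and was below 3d DM replicate 2 for all 10. Without it, only *Ccnd1* and *Ccnb1* remained called (limma, adjusted p = 0.045 for each), while adjusted p was 0.052 for *Ccna2*, 0.052 for *Ccnf*, 0.059 for *Ccne1*, 0.069 for *Ccnb2* and 0.13 for *Ccne2*. The log2 fold changes of these 5 genes were then 2.26, 2.34, 2.38, 1.71 and 2.05, and over all 11406 genes the calls dropped from 1936 to 145. With no filter on low values, 0 cyclins were called by limma, 7 had an unadjusted p under 0.05, and 154 of all 27179 genes were called, while the fold changes of the 10 cyclins were the same as with the filter.

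**Figure D2:**
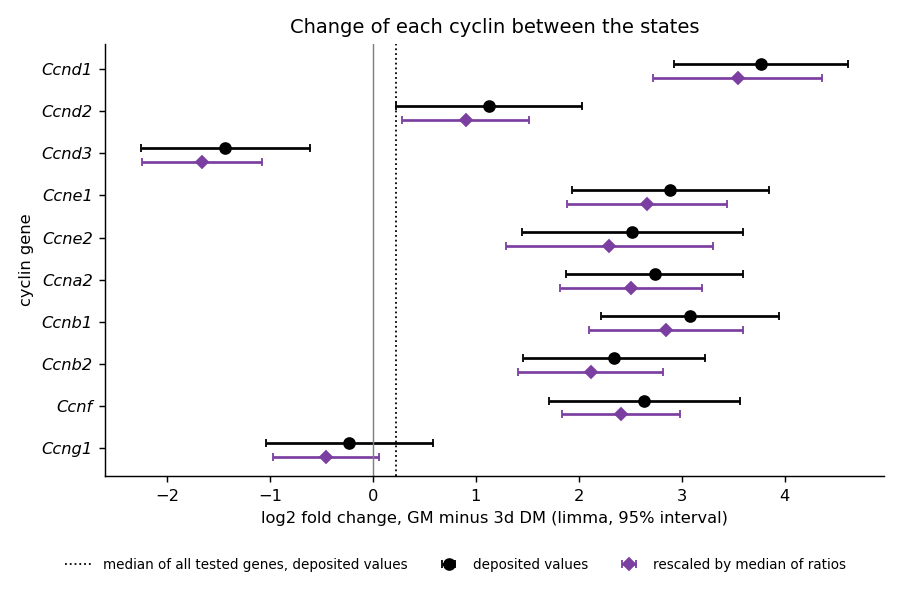
Log2 fold change (GM minus 3d DM) of each cyclin with its 95% interval from limma, for the deposited values (circles) and after median-of-ratios rescaling (diamonds). The dotted line is the median of all tested genes (0.22). The point estimates of *Ccnd3* and *Ccng1* lie to the left of 0 and those of the other 8 genes to the right.

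*Ccnd1* (Entrez 12443, GRCm38, chr7:144929931-144939831), the D-type cyclin that growth factors induce, had values of 2395 and 4037 in GM, against 178 and 287 in 3d DM. Both GM libraries were far above both 3d DM libraries. The ratio of the state means was 13.8, and the log2 fold change was 3.77 ± 0.43 (SE, limma adjusted p = 2.2e-16). Among the 11406 tested genes it ranked 35 in size toward GM. On the log2 scale the smallest distance between a GM and a 3d DM library was 3.05, while replicates were 0.75 apart in GM and 0.68 apart in 3d DM.

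*Ccnd2* (Entrez 12444, chr6:127125162-127152188), a D-type cyclin that also binds Cdk4 and Cdk6, had values of 391 and 465 in GM, against 145 and 259 in 3d DM. The states did not overlap, but the distance of 0.83 between the 3d DM replicates on the log2 scale was larger than the smallest distance of 0.59 between the states. Its log2 fold change of 1.13 ± 0.46 (SE) did not pass the test (limma adjusted p = 0.074, 95% interval 0.23 to 2.03). Rescaled values gave adjusted p = 0.050 by the median of ratios, still above the threshold, and 0.046 by the trimmed mean (limma).

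*Ccnd3* (Entrez 12445, chr17:47505051-47599689), which encodes the D-type cyclin of differentiated muscle, had values of 1339 and 749 in GM, against 2234 and 3273 in 3d DM. Both 3d DM libraries were above both GM libraries, and on the log2 scale the GM replicates were 0.84 apart and the 3d DM replicates 0.55. The mean in 3d DM was 2.64 times that in GM, and the log2 fold change was -1.43 ± 0.42 (SE, limma adjusted p = 0.0057). After median-of-ratios rescaling the 3d DM values were 2883 and 2977, and the GM values 1140 and 749, with a log2 fold change of -1.66 ± 0.24 (SE, limma adjusted p = 0.0074). The call rested on single libraries: adjusted p was 0.54 without GM replicate 2, 0.12 without 3d DM replicate 1 and 0.17 without 3d DM replicate 2, all with the same direction (limma). With the replicate number as a block, adjusted p was 0.074 (limma). The GM library with the higher *Ccnd3* was also the one with more muscle RNA, the sum of 6 differentiated-muscle genes being 5114 in GM replicate 1 and 1163 in GM replicate 2, and the part of this in the *Ccnd3* value was not tested.

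Because levels of different genes can be compared only per length, values were divided by the length of each gene's merged RefSeq exons. Per kb, *Ccnd1* made up 49.1% and 72.2% of the summed D-type cyclin value in the 2 GM libraries and 4.47% and 4.86% in the 2 of 3d DM. *Ccnd3* made up 45.7% and 22.3% in GM, against 93.2% and 92.3% in 3d DM. The share of *Ccnd2* was 5.23% and 5.43% in GM, against 2.37% and 2.86% in 3d DM. These shares do not depend on the scale of a library, and for each of the 3 genes the states did not overlap. The summed D-type value per kb did overlap between the states, at 1295 and 1483 in GM, against 1061 and 1569 in 3d DM. With 2 libraries against 2 an exact permutation test cannot give a two-sided p under 0.33, so no test of a single share is given.

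**Figure D3:**
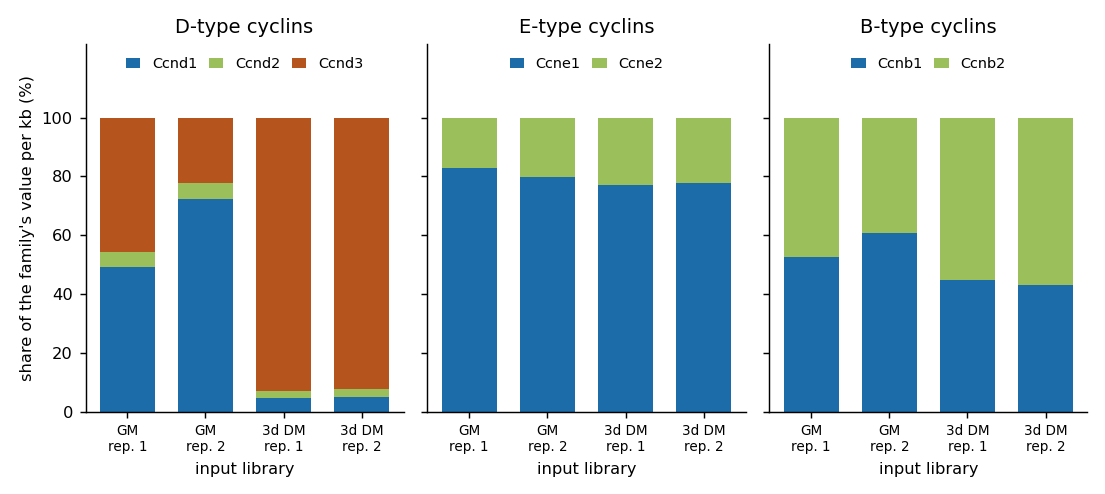
Share (%) of each gene in the summed value per kb of its cyclin family, as stacked bars for the 4 input libraries. *Ccnd3* takes 92.3 to 93.2% of the D-type value in 3d DM and 22.3 to 45.7% in GM, while the E-type and B-type bars differ far less between the states.

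*Ccne1* (Entrez 12447, chr7:38097984-38107490), an E-type cyclin and partner of Cdk2, had values of 358 and 466 in GM, against 37.9 and 77.4 in 3d DM. Its log2 fold change was 2.89 ± 0.49 (SE, limma adjusted p = 1.0e-07). *Ccne2* (Entrez 12448, chr4:11190433-11204779), its close relative, had values of 122 and 196 in GM, against 18.5 and 36.6 in 3d DM, and per kb it had the lowest level of the 10 genes in every library. For both E-type genes each GM library was above each 3d DM library. The log2 fold change of *Ccne2* was 2.52 ± 0.55 (SE, limma adjusted p = 6.6e-05). *Ccne1* kept most of the E-type value per kb throughout, with 82.9% and 79.7% in GM, against 77.1% and 77.7% in 3d DM. The states did not overlap in this share, but their means differed only from 81.3% to 77.4%.

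*Ccna2* (Entrez 12428, chr3:36564865-36573038), the cyclin A of dividing somatic cells, had values of 1416 and 1876 in GM, against 175 and 339 in 3d DM. The ratio of its state means was 6.41 and its log2 fold change 2.74 ± 0.44 (SE, limma adjusted p = 1.5e-08). The smallest distance between the states on the log2 scale was 2.06, more than the 0.95 between the 3d DM replicates. *Ccnb1* (Entrez 268697, chr13:100778739-100786486), the main mitotic partner of Cdk1, had values of 1464 and 1824 in GM, against 128 and 290 in 3d DM, with a log2 fold change of 3.08 ± 0.44 (SE, limma adjusted p = 1.5e-10). After *Ccnd1* this was the largest change among the 10 genes. The table also lists the pseudogene *Ccnb1-ps*, whose reads cannot be told apart from those of *Ccnb1* with certainty, and its value was between 3.00% and 7.10% of that of *Ccnb1* in each library.

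*Ccnb2* (Entrez 12442, chr9:70407689-70421554), the B-type cyclin of the Golgi, had values of 881 and 790 in GM, against 105 and 255 in 3d DM. Its log2 fold change of 2.34 ± 0.45 (SE, limma adjusted p = 4.5e-06) was the smallest of the 7 genes that fell, and its 3d DM replicates were 1.27 apart on the log2 scale, the widest gap among the 10 genes. Within the B-type value per kb, *Ccnb2* took 47.5% and 39.4% in GM, against 55.2% and 56.9% in 3d DM, so the states did not overlap. *Ccnf* (Entrez 12449, chr17:24223230-24251409), the F-box cyclin that marks other proteins for destruction in G2, had values of 470 and 530 in GM, against 64.3 and 97.8 in 3d DM. Its log2 fold change was 2.64 ± 0.47 (SE, limma adjusted p = 6.7e-07), and its replicates were the closest of the 7 genes that fell in 3d DM after rescaling, at 83.0 and 89.0.

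Promoters of mitotic cyclins are known for CCAAT boxes, bound by NF-Y, and for the cell cycle gene homology element, which the DREAM and B-Myb complexes contact. This element was searched only in its form TTTGAA. RefSeq promoter sequences (GRCm38.p6) were at hand for 6 of the 10 genes, *Ccnb1*, *Ccnb2*, *Ccnd3*, *Ccne1*, *Ccnf* and *Ccng1*, in 7 windows of 250 bases before to 50 after a start, and those of *Ccna2*, *Ccnd1*, *Ccnd2* and *Ccne2* were missing entries. The 3 with more than 1 CCAAT among the genes that fell are shown from 150 bases before to 20 after the start, in the direction of transcription, with CCAAT and TTTGAA in capitals. They lie on the minus strand at chr13:100786467-100786636 for *Ccnb1*, chr9:70421535-70421704 for *Ccnb2* and chr17:24251390-24251559 for *Ccnf*.
Ccnb1: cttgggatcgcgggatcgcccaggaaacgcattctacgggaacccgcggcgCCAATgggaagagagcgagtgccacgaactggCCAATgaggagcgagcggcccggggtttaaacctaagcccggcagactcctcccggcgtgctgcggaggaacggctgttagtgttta
Ccnb2: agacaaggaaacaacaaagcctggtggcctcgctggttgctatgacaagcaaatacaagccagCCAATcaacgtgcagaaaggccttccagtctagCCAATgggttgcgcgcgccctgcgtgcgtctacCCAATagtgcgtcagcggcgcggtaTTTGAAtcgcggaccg
Ccnf: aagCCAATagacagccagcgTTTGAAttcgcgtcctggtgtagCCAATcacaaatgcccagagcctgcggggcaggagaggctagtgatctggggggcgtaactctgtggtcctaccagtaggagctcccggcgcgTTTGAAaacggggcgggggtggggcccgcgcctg

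In the whole windows, searched on both strands, *Ccnb1* had CCAAT 99 and 67 bases before the start and no TTTGAA. Other forms of the element, such as the tttaaa in the printed *Ccnb1* stretch, were not searched. A window without TTTGAA is therefore not shown to lack the element. *Ccnb2* had CCAAT 87, 54 and 21 bases before the start, which is an even spacing, and TTTGAA 167 bases before it and at base 5 after it. *Ccnf* had CCAAT 147 and 107 bases before the start and TTTGAA 130 and 14 bases before it. *Ccng1*, which did not fall, had 4 CCAAT and no TTTGAA, *Ccnd3* had 1 CCAAT in 1 of its 2 windows, and *Ccne1* had neither sequence. No window of the 6 genes held the E2F-type sequence TTTNNCGC. Among all 32851 promoter windows of the same length, 37.4% held CCAAT, 11.7% held it at least 2 times, 17.9% held TTTGAA, 5.17% held TTTNNCGC, and 2.09% held TTTGAA with at least 2 CCAAT. The motifs are letters in a window and were not tested as binding sites.

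*Ccng1* (Entrez 12450, chr11:40748552-40755309), a p53 target that does not follow the cycle, had values of 2236 and 2537 in GM, against 2505 and 3105 in 3d DM. The states overlapped, and the log2 fold change was -0.23 ± 0.41 (SE, limma adjusted p = 0.81, 95% interval -1.04 to 0.58). After rescaling it was -0.46 (95% interval -0.97 to 0.06, limma adjusted p = 0.17). Both intervals include changes of either sign, so with 2 libraries a state neither a rise nor a fall was shown.

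Per kb, the order of the cyclins in GM was *Ccnd1* with a mean of 853 ± 308 (SD, n = 2), *Ccnb1* with 710 ± 110, *Ccng1* with 684 ± 61.0, *Ccnb2* with 542 ± 41.8, *Ccna2* with 487 ± 96.3 and *Ccnd3* with 462 ± 184. *Ccne1* with 211 ± 38.8, *Ccnf* with 161 ± 13.7, *Ccnd2* with 74.1 ± 9.03 and *Ccne2* with 49.3 ± 16.2 followed. Library values overlapped between neighbours among the top 3 genes and among *Ccnb2*, *Ccna2* and *Ccnd3*, while neighbours from *Ccnd3* down did not overlap. In 3d DM *Ccnd3* came out on top with 1218 ± 325 and *Ccng1* next with 804 ± 122, and neither overlapped its neighbour. The other 8 genes had means from 117 ± 68.7 (*Ccnb2*) down to 8.55 ± 3.98 (*Ccne2*), and in both 3d DM libraries they ran in the order *Ccnb2*, *Ccnb1*, *Ccna2*, *Ccnd1*, *Ccnd2*, then *Ccne1* and *Ccnf* in either order, then *Ccne2*.

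Over the 4 input libraries, the non-member genes closest to *Ccna2* in pattern were *Tk1* and *Knl1*, at Euclidean distances of 0.06 and 0.07 between mean-centred log2 values. Those closest to *Ccnb1* were *Plk1*, *Sgo2a* and *Rad18* (0.11, 0.15 and 0.15), and its closest fellow cyclin was *Ccne1* at 0.22. *Ccnd1* was closest to *Sprr1a*, *Akap12* and *Aqp1* (0.22, 0.26 and 0.29), and no other cyclin came nearer to it than *Ccnb1* at 0.84. *Ccnd3* was closest to *Armcx1*, *Zbtb18* and *Sorbs2* (0.08, 0.09 and 0.10), with *Ccng1* as the nearest cyclin at 1.41. The distances are a description over 4 points.

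Of the 6 listed CDK genes, 3 fell and 3 did not pass the test, against 9.96% of all tested genes called as higher in GM. Among the kinases named above as partners of these cyclins, only *Cdk2* did not pass. *Cdk1* had values of 2301 and 2619 in GM, against 193 and 360 in 3d DM, with a log2 fold change of 3.21 ± 0.43 (SE, limma adjusted p = 6.6e-12), next to 3.08 for its partner *Ccnb1*. *Cdk4* had 4552 and 4119 in GM, against 1192 and 1879 in 3d DM, a log2 fold change of 1.53 ± 0.41 (SE, limma adjusted p = 0.0021). *Cdk6* had 279 and 376 in GM, against 73.2 and 108 in 3d DM, a log2 fold change of 1.85 ± 0.48 (SE, limma adjusted p = 0.0013). All 3 were higher in each GM library than in each 3d DM library. *Cdk2*, *Cdk5* and *Cdk7* had log2 fold changes from -0.09 to 0.15. The change of *Cdk2*, -0.09 ± 0.44 (SE), was not detectable, while both genes for its E-type partners fell.

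Of the 7 CDK inhibitor genes, 5 were tested, 2 rose and 3 did not pass the test, against 7.01% of all tested genes called as higher in 3d DM. *Cdkn1a*, which encodes p21, had values of 3444 and 1416 in GM, against 15897 and 19014 in 3d DM, a log2 fold change of -2.98 ± 0.40 (SE, limma adjusted p = 1.1e-11). *Cdkn1c*, which encodes p57, had values of 26.5 and 9.05 in GM, against 37.1 and 104 in 3d DM, with a log2 fold change of -1.93 ± 0.62 (SE, limma adjusted p = 0.014). For both genes the 3d DM libraries lay above the GM libraries, and GM replicate 1 lay above GM replicate 2. *Cdkn1b*, *Cdkn2c* and *Cdkn2d* had log2 fold changes from 0.26 to 0.96, and *Cdkn2a* and *Cdkn2b* were listed at 0 in every library.

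**Figure D4:**
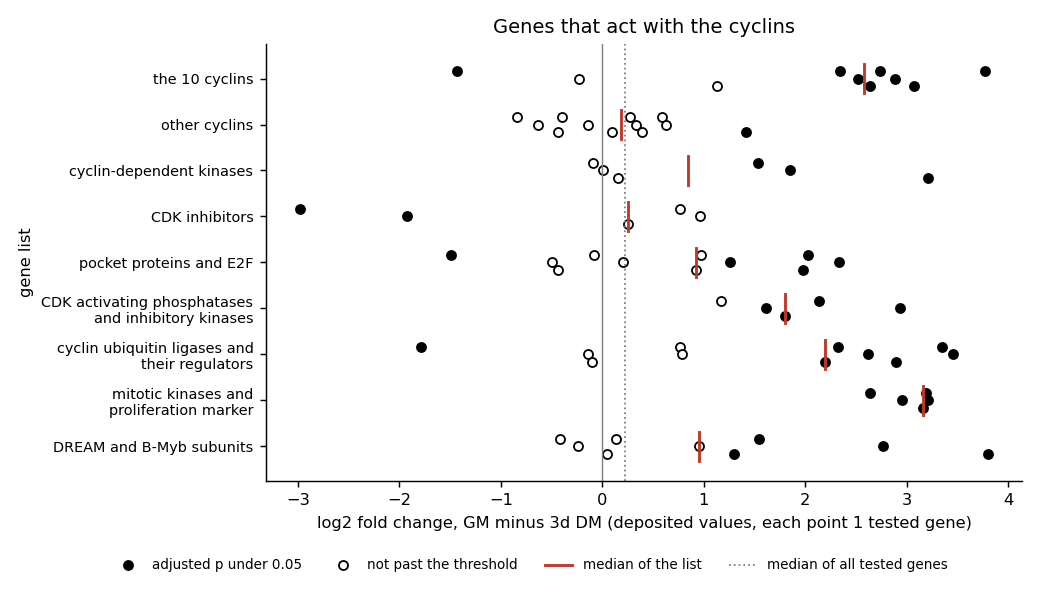
Log2 fold change (GM minus 3d DM) of every tested gene in the 10 cyclins and 8 lists of genes that act with them, with filled points past an adjusted p of 0.05 and a red bar for each list's median. Medians run from 0.18 for the other cyclins to 3.16 for the mitotic kinases and proliferation marker, against 0.22 for all tested genes.

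Of the other cyclins, among them those of transcription and splicing, 12 of 16 were tested and 1 fell, with a median log2 fold change of 0.18. Over all tested genes, 9.96% were called as higher in GM and the median was 0.22. The 1 that fell was *Ccnyl1*, named after its value was seen, at 568 and 648 in GM, against 201 and 255 in 3d DM (log2 fold change 1.42 ± 0.45 SE, limma adjusted p = 0.014). After rescaling, 2 more of these genes, *Ccnt2* and *Ccny*, named after their values were seen, were called as higher in 3d DM, as were 12.0% of all tested genes. Neither count sets these cyclins apart from the other genes. Among 11 pocket protein and E2F genes, 4 fell and 1 rose (3 and 1 after rescaling), with a median of 0.92. The 1 that rose, named after its value was seen, was *Rb1*, the main target of cyclin D kinases, at 685 and 337 in GM, against 1115 and 1644 in 3d DM. Among 5 phosphatases and kinases that switch CDKs on and off, 4 fell and 0 rose, with a median of 1.80.

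Ubiquitin ligase genes that destroy cyclins, with their regulators, fell in 6 of 11 cases and rose in 1, with a median log2 fold change of 2.20. The 1 that rose, named after its value was seen, was *Fbxw7*, whose product recognises cyclin E protein. It had values of 218 and 164 in GM, against 646 and 660 in 3d DM, while *Ccne1* and *Ccne2* RNA fell. These libraries hold no measure of protein, and a link between the changes was not tested. All 5 genes of the list of mitotic kinases and the proliferation marker *Mki67* fell, with a median of 3.16. *Mki67* had values of 3586 and 3659 in GM, against 446 and 760 in 3d DM, a log2 fold change of 2.63 ± 0.42 (SE, limma adjusted p = 1.4e-08), close to the 2.58 of the cyclin median. Of 9 DREAM and B-Myb genes, 4 fell and 0 rose, with a median of 0.95. For these lists too, the shares called over all tested genes were 9.96% as higher in GM and 7.01% as higher in 3d DM.

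Muscle genes served as a check of the labels. All 6 differentiated-muscle genes were higher in 3d DM, with sums of 5114 and 1163 in GM, against 95442 and 132768 in 3d DM. *Myog* had values of 1008 and 221 in GM, against 5392 and 11502 in 3d DM, and *Ckm* 110 and 17.1 in GM, against 1740 and 1996 in 3d DM. Of 4 myoblast genes 1 was higher in GM and 1 in 3d DM. None of the 12 endothelial, blood, adipocyte and epithelial marker genes reached the filter, their summed values per library ran from 0 to 73.0 by cell type, and *Hbb-bs*, *Adipoq* and *Plin1* were at 0 in every library. Deposited columns summed to between 12534657 and 12536233 with 24.4% to 41.3% of it in the largest entry, so the totals are no depth, and the depth of the libraries is unknown.

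m6A peaks, stretches where precipitated RNA exceeded input RNA, were listed for 9 of the 10 cyclin genes in at least 1 library and for 2, *Ccne2* and *Ccng1*, in all 4. Among all tested genes, 75.1% had a peak in at least 1 list and 42.0% in all 4. *Ccna2* had no peak in any list. After peaks that shared at least 1 bp were merged, the 10 genes held 19 peaks, of which 2 were in all 4 lists, 3 in 3 lists and 14 in 1 list. Of the 19, 11 lay in the 3′ UTR, 3 over the stop codon into the 3′ UTR, 4 in coding sequence and 1 in the 5′ UTR. Without 3d DM replicate 2, 4 genes had a peak in each remaining list, as *Ccnd1* and *Ccnd2* joined.

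The lists differed in how much they held. GM replicate 1 had 14 of the 19 peaks, GM replicate 2 had 8, 3d DM replicate 1 had 6 and 3d DM replicate 2 had 3. Of the 14 peaks in 1 list, 9 were in GM replicate 1 alone, 3 in GM replicate 2 alone and 1 in each 3d DM library alone. Over all genes the lists had 31188 and 26563 lines in GM and 31213 and 23778 in 3d DM, where a line is a peak on a transcript. The 7 cyclins whose RNA fell held 12 of the 19 peaks, each of them in at least 1 GM list and 2 of them in a 3d DM list. The same split was not counted over the peaks of all genes, so it does not set these cyclins apart. The part of their lower RNA in this was not tested.

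**Figure D5:**
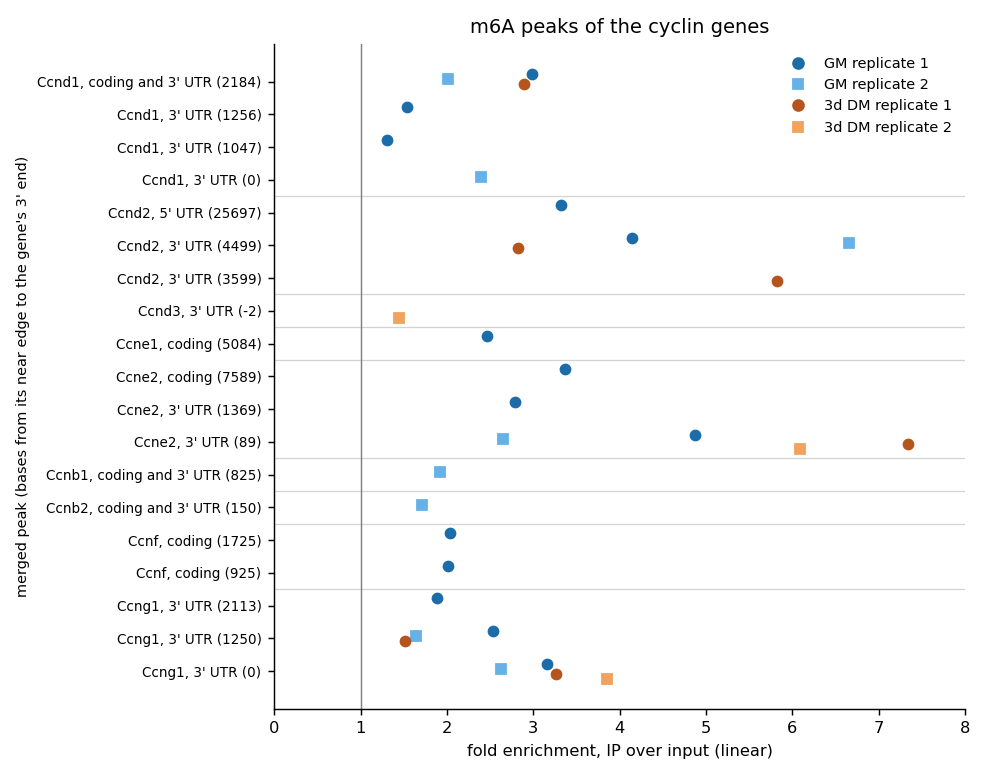
Fold enrichment of precipitated over input RNA (linear axis, 1 marks no enrichment) of the 19 merged cyclin peaks, with GM in blue, 3d DM in orange, circles for replicate 1 and squares for replicate 2. A missing symbol means that the list had no peak there, and only the *Ccne2* and *Ccng1* peaks at 89 and 0 bases from the gene's 3′ end have all 4 symbols.

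The *Ccne2* peak in all 4 lists lay near the end of the 3′ UTR at chr4:11204362-11204690 (mm10, plus strand), 89 bases before the end of the gene. Its mean fold enrichment over transcripts was 4.87 and 2.65 in GM, against 7.34 and 6.09 in 3d DM. Both 3d DM libraries were above both GM libraries, while the RNA itself was lower in 3d DM. Input RNA is the denominator of this fold, and the *Ccne2* expression values in 3d DM, 18.5 and 36.6, were near the filter value of 25.1. The part of this low RNA in the fold was not tested. The log2 difference of the fold (GM minus 3d DM) was -0.90 ± 0.47 (SE, 95% interval -1.88 to 0.08, limma adjusted p = 0.998). It ran from -0.46 without GM replicate 2 to -1.34 without GM replicate 1. Taking the highest fold over transcripts gave -1.37 and centring the libraries on their medians -1.01, and no alternative passed the test. In GM replicate 1 the gene also had a coding peak of 3.37-fold and a peak of 2.79-fold just after the stop codon, which no other list held.

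The *Ccng1* peak in all 4 lists lay at the end of the 3′ UTR at chr11:40748552-40748850 (minus strand), and reached the end of the gene. Its fold enrichment was 3.16 and 2.63 in GM, against 3.26 and 3.85 in 3d DM. Both 3d DM values were again above both GM values, but the closest GM and 3d DM libraries, at 3.16 and 3.26, were nearer to each other than the replicates of either state. The log2 difference was -0.30 ± 0.36 (SE, 95% interval -1.07 to 0.47, limma adjusted p = 0.998). Of the 6019 peaks common to all lists, 9.49% had both 3d DM values above both GM values, and 0 (0.00%) passed an adjusted p of 0.05 (limma), with 207 at an unadjusted p under 0.05, none of them a cyclin peak. The *Ccne2* peak did have an unadjusted p under 0.05 without GM replicate 1, with the highest fold over transcripts and with median centring. The median log2 difference over the common peaks was 0.10.

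m6A is laid down within the sequence DRACH (D is not C, R is a purine, H is not G), most often where a G precedes the modified A. In the stretch that all lines of the 4 lists shared, *Ccne2* had 5 DRACH in 209 bases, 1 of them with that G, and *Ccng1* had 11 in 269 bases, 2 of them with that G. The windows around these 3 are shown 5′ to 3′ as DNA with the 5 motif letters in capitals, at chr4:11204603-11204627 for *Ccne2* and at chr11:40748771-40748795 and chr11:40748607-40748631 for *Ccng1*.
Ccne2: attagaagttTGACTgaaaaaaatt
Ccng1, upstream site: ggaaccatttTGACAtgtaatggat
Ccng1, downstream site: gatttggagtGGACAgaagttaact

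The downstream *Ccng1* site was the only one with GGAC, the form the methylase is known to prefer, and the shared *Ccne2* stretch had none. In windows of the same length centred on 1870 common peaks that lie in 1 exon, the median was 5 DRACH in 209 bases and 6 in 269 bases, and 66.6% and 74.0% held GGAC followed by A, C or T. A DRACH was in 99.3% and 99.7% of these windows, so its presence sets neither peak apart.

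*Ccnd1* and *Ccnd2* each had a merged peak in 3 lists, GM replicates 1 and 2 and 3d DM replicate 1. That of *Ccnd1* lay at chr7:144932115-144932683 (minus strand) with 2.99-fold and 2.01-fold enrichment in GM and 2.89-fold in 3d DM. Only its stretch in GM replicate 2 ran over the stop codon, and those of GM replicate 1 and 3d DM replicate 1 lay wholly in the 3′ UTR. That of *Ccnd2* lay in the 3′ UTR at chr6:127129661-127129961 (minus strand) with 4.14-fold and 6.65-fold in GM and 2.82-fold in 3d DM. In both genes the stretches of GM replicate 2 and 3d DM replicate 1 each overlapped that of GM replicate 1 but not each other, so they may not be the same site. *Ccng1* had a further such peak at chr11:40749802-40750575, at 2.53-fold and 1.64-fold in GM. In 3d DM replicate 1 it held 2 separate stretches of 1.27-fold and 1.81-fold, and the weaker of these did not reach the stretch of GM replicate 2.

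The other peaks were each in 1 list. The highest of them was a 3′ UTR peak of *Ccnd2* in 3d DM replicate 1 alone, at 5.82-fold (chr6:127128761-127128821), and *Ccnd2* also had a 5′ UTR peak of 3.32-fold in GM replicate 1. *Ccnd1* had further 3′ UTR peaks of 2.40-fold in GM replicate 2 and of 1.31-fold and 1.54-fold in GM replicate 1, and *Ccng1* had 1 of 1.88-fold in GM replicate 1. *Ccnb1* and *Ccnb2* had a stop codon peak in GM replicate 2 alone, at 1.91-fold and 1.71-fold. *Ccne1* had a coding peak of 2.46-fold and *Ccnf* had coding peaks of 2.01-fold and 2.03-fold, all in GM replicate 1 alone. *Ccnd3* had a peak at the end of its 3′ UTR in 3d DM replicate 2 alone, at 1.45-fold. No list that lacks a peak gives a value for it, so these cannot be compared between states.

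Some of these genes share their place with others. The libraries were made with a stranded kit, but whether strand was used in counting is not given in the sources used here, and without it reads of overlapping genes cannot be told apart. *Ccna2* overlaps *Exosc9*, *Ccnd1* overlaps *LTO1*, *Ccnd2* overlaps *9330179D12Rik*, *Ccnd3* overlaps *Bysl* and *Gm41590*, and *Ccne2* overlaps *Ints8* and *A630034I12Rik* in the RefSeq annotation. *Ccnf* contains 2 microRNA genes. *Ccnb1*, *Ccnb2*, *Ccne1* and *Ccng1* overlap no annotated gene.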

How the data were processed

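Input RNA and m6A-precipitated RNA of C2C12 cells were measured with 2 libraries of each kind in GM and 3d DM. According to the methods, reads were cut free of adaptors by the authors, mapped to mm10 (HISAT2 2.1.0) and searched for peaks sample by sample with exomePeak at P of at most 0.05. The deposited peak lists give a p-value and a fold (ratio of precipitated to input RNA) per peak and transcript. Expression was deposited as a normalized signal per gene and input library, made by the authors with edgeR and labelled as trimmed-mean scaled. No step size runs through its low values, so it holds no recoverable reads, and its effect on the spread between replicates is not visible. Entrez identifiers were matched to RefSeq symbols. Genes were kept if they reached 2 cpm, taken from the column totals, in at least 2 libraries, and log2(value + 1) was compared with limma 3.58.1 in R 4.3.3, using its trend option and p-values adjusted after Benjamini and Hochberg. In the fit of the deposited expression values, standard errors followed the trend rather than a gene's own replicates. Peaks in all 4 lists were tested with the same method on the mean log2 fold over transcripts. In the peak fit and after median-of-ratios rescaling, the replicates of each peak or gene also entered its standard error. The deposit's own state comparisons were not used. The fit was first tested on simulated data. The members and gene lists were chosen with earlier results of these data known. All 10 cyclins are given in every library. Of the other lists, counts are given, with values for CDKs and CDK inhibitors past the threshold, *Mki67*, *Myog* and *Ckm*, and the 3 nearest genes for 4 cyclins, of which 1 is not reported here. Plots used matplotlib 3.10.9.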

Additional observations from a re-analysis of the deposited data

How the results depend on the processing

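Across 12 alternatives for each of the 10 cyclins, 120 values in all, none changed direction, 102 stayed on the same side of the threshold, 17 lost the call and 1 gained it. Without a filter on low values, 0 cyclins and 154 of all genes were called by limma. Leaving out 1 library at a time gave from 2 to 8 called cyclins and from 145 to 1252 called genes, the fewest without 3d DM replicate 1, where the lone library of a state is assumed to vary like the others. Replicate numbers were not known to pair libraries (correlation of same-numbered deviations 0.29 for expression and 0.12 for peaks), and with the replicate number as a block 7 cyclins (*Ccnd3* lost, adjusted p = 0.074, limma) and 1298 genes were called. The filter in at least 3 libraries, pseudocounts of 0.1 and 4, both rescalings and the fit without a trend left 8 or 9 cyclins called. For m6A, 0 cyclin peaks were called by limma under any alternative, the block included, and leaving out libraries gave 0 to 7 called peaks of all genes, the 7 without GM replicate 2. Cyclin genes with a peak in all lists numbered 2 to 4 with a library left out and 0 at a fold enrichment of at least 4. Depth is unknown, so a missing peak is no measurement.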
